A study of Mus musculus with 28 samples.

Results

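The Zfp genes are the mouse genes named as zinc finger proteins, and 132 of them were taken as expressed in C10 cells during their conversion from Pre-B cells to macrophages. A gene was a member when its symbol was Zfp followed by a number, with at most one further letter and digit, and its mean TPM (the share of transcripts on a scale that sums to the same total in each library, as deposited) over the 12 RNA libraries was at least 1. Of the 55450 genes in the table, 403 had such a symbol, 304 of these had a mean TPM of at least 0.1, 39 were listed at 0 in all libraries, and 132 were members. Zfp958 at 1.05, Zfp658 at 1.03 and Zfp654 at 1.02 lay just inside the limit, and Zfp637 at 0.992, Zfp780b at 0.983 and Zfp467 at 0.979 lay just outside it.

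C10 (CEBPalpha-ER) is a HAFTL-derived mouse Pre-B cell line with a transgene that joins the myeloid transcription factor C/EBPα to the hormone-binding part of the estrogen receptor, so that estradiol activates the factor. All cells studied carry this transgene, those at 0h included. Differentiation was induced with 100 nM β-estradiol, 10 nM IL-3 and CSF-1, and RNA was sequenced at 0h, 1h, 12h and 48h with 3 biological replicates each. Promoter Capture Hi-C (PCHi-C), which lists the DNA fragments that contact gene promoters, was made at the same times, and its deposited lists pool the replicates. One line was studied, and cells kept without inducer for 1h, 12h or 48h were not analysed here, so induction and time in culture cannot be told apart.

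Most Zfp proteins carry zinc fingers of the C2H2 type, small folds held by a zinc ion that read DNA sequence in tandem. Many also carry a KRAB box at the N terminus, which recruits the corepressor Trim28 (KAP1) and with it the histone methyltransferase Setdb1 and HP1 proteins, and these KRAB zinc finger proteins are best known for silencing retroelements and protecting imprints. A few genes with Zfp names have other roles, among them Zfp36, Zfp36l1 and Zfp36l2, whose CCCH fingers bind AU-rich elements in mRNA and recruit the deadenylase complex that starts its decay.

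TPM of these libraries were rescaled by median-of-ratios size factors before testing, and levels below are scaled TPM unless they are said to be as deposited. On the TPM as deposited the median log2 change of all 16415 genes tested was 0.59 after 1h, 0.34 after 12h and -0.18 after 48h, and after scaling it was 0.02, 0.07 and 0.07. A gene was called when its log2 fold change passed 1 in either direction with an adjusted p under 0.05 (limma on log2(scaled TPM + 0.1), Benjamini-Hochberg over all genes tested), so fold changes of low genes are understated. All comparisons share the same 0h libraries. The summed level of 14 Pre-B markers ranged from 344 to 373 at 0h and from 49.0 to 57.0 after 48h, with Vpreb2, Rag1 and Dntt listed at 0 after 48h. That of 10 macrophage markers ranged from 12.8 to 15.5 at 0h, with Msr1 and Adgre1 listed at 0, and from 1370 to 1672 after 48h. Mmp12 and Ctsc, at means of 709 and 514, held most of the latter sum. After 48h all 9 macrophage markers tested were called higher, while Adgre1 was at 0, 0 and 0.386 and was not tested. Of the Pre-B markers 13 were called lower after 48h and Blnk was not, at means of 7.22 at 0h and 5.16 after 48h. T and NK cell, erythroid and neutrophil markers summed to at most 0.125, 0 and 3.90 in any library. TPM keep no depth, and the depth that the paper says its supplement describes was not used here, so no interval for counting error is given. The libraries of replicate 3 stood apart as a set, since their deviations from the mean of their time correlated at 0.08 to 0.26 with each other and at -0.18 to -0.01 with those of replicates 1 and 2, and each time holds 1 of them. In bulk RNA, fewer cells of a type and less RNA per cell cannot be told apart.

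The Zfp genes were expressed at low levels. Their median of the mean TPM as deposited was 1.87, against 3.71 over all 9331 genes at or above the same limit. Of the 132 members, 70 were under 2 TPM, 13 reached 5 and 6 reached 10. These 6 were Zfp207 at 22.0, Zfp36l2 at 17.8, Zfp706 at 15.6, Zfp36l1 at 13.8, Zfp106 at 10.6 and Zfp36 at 10.6, and they stand at the left of the ranked plot of levels. After scaling, 90 members had a mean of at least 1 at all 4 times, 15 were under 1 at 0h and 16 were under 1 after 48h.

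**Figure D1:**
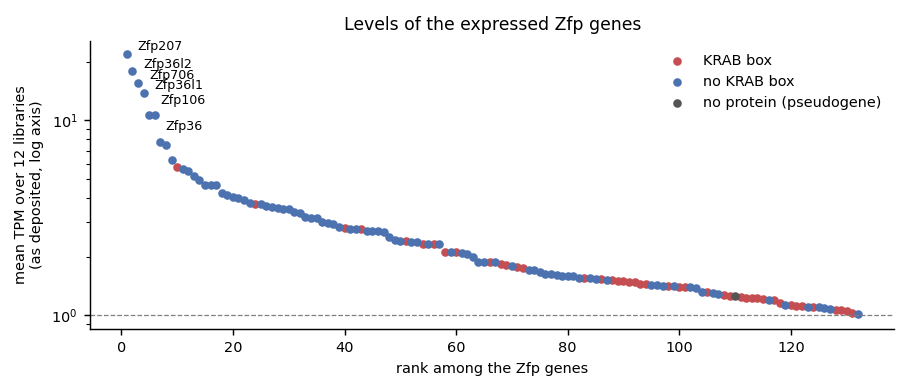
Mean TPM over the 12 RNA libraries, as deposited and on a log axis, for the 132 Zfp genes in rank order, with points coloured by whether the protein holds a KRAB box and a dashed line at the limit of 1. No KRAB box was found in the 6 genes above 10 TPM, and most KRAB genes lie below 2.

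The members were scattered over 20 chromosomes, with the largest number, 28, on chromosome 7 and 11 on chromosome 17. A coding sequence could be translated for 131 of them, and Zfp783 is annotated as a transcribed pseudogene. A KRAB box was found in 44 proteins and not in 87, by at least 18 of 37 positions matching 1 model sequence. Boxes that differ more from it would be missed, so the 87 may hold some KRAB proteins. Genes said below to be without the box are those in which none was found. Proteins with the box had a median of 11 C2H2 fingers and those without had 6, and the most fingers in one protein was 36. Only Zfp36, Zfp36l1 and Zfp36l2 held CCCH fingers. KRAB genes were the lower in level, with a median of 1.45 TPM against 2.53 for the others, and the highest of them was Zfp445 at 5.75 TPM. In 15 members over 10% of the exon bases are shared with another annotated gene, and since the library kit does not mark strand, reads of such neighbours cannot be told apart.

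Few Zfp genes were called after 1h on the scaled values. At 1h 1 member was called higher and 1 lower (0.758% each), where 4.08% of all genes tested were higher and 2.83% lower. Of all genes at or above 1 TPM, 4.12% were higher and 3.87% lower. With limma's unadjusted p under 0.05, 15 members were higher and 5 lower after 1h, beside 2170 and 1964 of the 16415 genes tested. At 12h 9 members were higher and 10 lower (6.82% and 7.58%), beside 12.0% and 9.39% of all genes tested and 13.1% and 12.9% of those at or above 1 TPM. At 48h 18 were higher and 13 lower (13.6% and 9.85%), beside 19.6% and 17.6% of all genes tested, and 19.6% and 24.8% of those at or above 1 TPM. On this scale the shares of members called were below both backgrounds in each comparison, and neither background was matched to the members for level. Members were chosen on their mean over all times, and 7 of the 18 higher after 48h were under 1 scaled TPM at 0h while 6 of the 13 lower were under 1 after 48h, so these passed the limit through the times at which they were high.

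The split between directions depended on the scaling. On TPM as deposited 26 members were higher and 1 lower after 1h (19.7% and 0.758%), beside 16.7% and 1.08% of all genes tested and 17.1% and 1.26% of those at or above 1 TPM, so the share higher was then above both backgrounds. At 12h 16 and 4 were called (12.1% and 3.03%), beside 17.7% and 5.75% of all genes tested and 19.8% and 7.49% of those at or above 1 TPM. At 48h 8 and 31 were (6.06% and 23.5%), beside 13.5% and 23.1% of all genes tested and 13.8% and 33.4% of those at or above 1 TPM. Rescaling without the 20 most abundant genes gave 2 and 1 after 1h, 10 and 6 after 12h and 14 and 16 after 48h, and quantile normalization gave 2 and 1, 8 and 6, and 15 and 13. Without the libraries of replicate 3 the counts were 1 and 1, 7 and 6, and 18 and 17. Of the calls after 12h 6 of the 9 higher and 6 of the 10 lower remained without these libraries, and of those after 48h 15 of the 18 and 13 of the 13. Among the calls lost were those of Zfp236, Zfp276 and Zfp428 after 12h and of Zfp36l1 and Zfp488 after 48h (adjusted p 0.0527 to 0.106, limma). Of the calls after 48h, 8 of the 18 higher and 13 of the 13 lower were also called on TPM as deposited. In all, 34 members were called at 1 or more times and 98 at none, and no member was called in both directions. Of these, 8 were higher at both 12h and 48h and 8 were lower at both. Such counts over several times were not made for all genes tested, so they stand without a background.

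**Figure D2:**
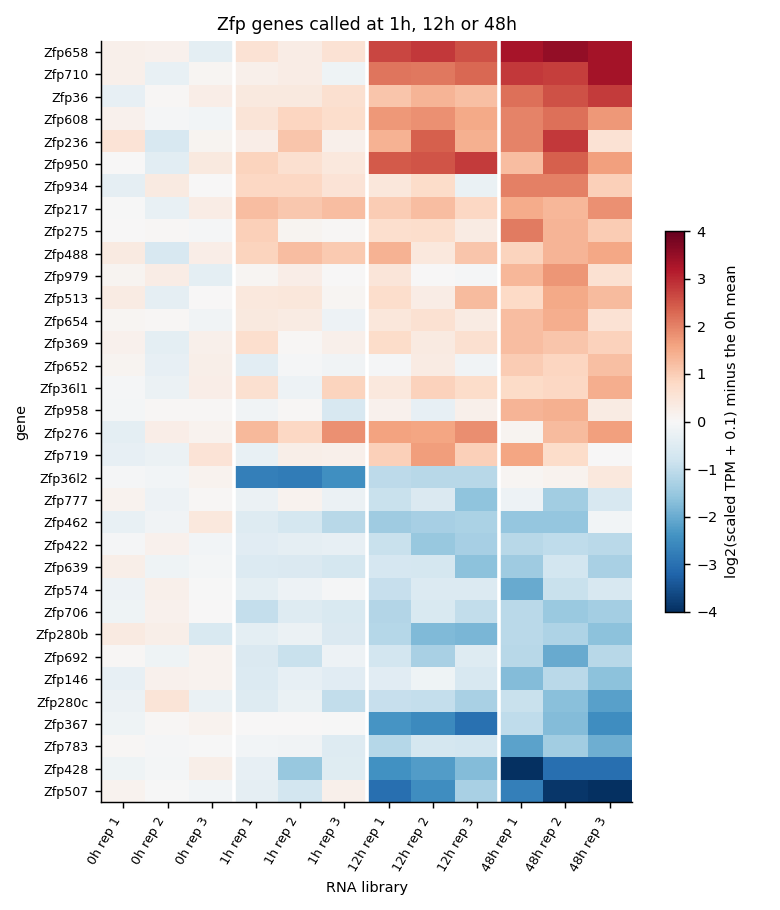
Change of each library from the 0h mean, as log2(scaled TPM + 0.1), for the 34 Zfp genes called after 1h, 12h or 48h (rows, ordered by their change after 48h) in the 12 RNA libraries (columns). Zfp658, Zfp710 and Zfp36 rise to the deepest red after 48h, Zfp507 and Zfp428 turn the deepest blue, and Zfp36l2 is bluest after 1h.

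The 3 expressed CCCH genes of mRNA decay, all among the 6 most abundant members, followed different courses. Zfp36l2 was at 27.1, 26.4 and 31.4 scaled TPM at 0h, at 4.18, 3.96 and 5.07 after 1h, at 13.6, 12.9 and 13.1 after 12h, and at 29.5, 31.4 and 37.9 after 48h. Every 1h library lay far below every 0h library, those of 12h were intermediate, and those of 48h overlapped those of 0h. Zfp36l2 (chr17:84183931-84187947) encodes an mRNA decay factor that is required with Zfp36l1 for normal lymphocyte development. Its log2 fold change was -2.66 ± 0.14 (SE) after 1h (adjusted p = 1.69e-06, limma), a mean 6.43-fold lower, and -1.09 ± 0.14 after 12h (adjusted p = 0.000144). At 48h it was 0.21 ± 0.14 (adjusted p = 0.232), and -0.20 on TPM as deposited. The call after 1h stood under each alternative scaling, and that after 12h was lost in log2 fold on all of them, at -0.76 as deposited, and at -0.97 with both others.

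Zfp36 (tristetraprolin, chr7:28376784-28380253), the founding member of the family and a brake on cytokine mRNAs such as that of TNF, rose. It was at 3.41, 4.39 and 5.20 scaled TPM at 0h, at 5.62, 5.59 and 6.68 after 1h, at 9.40, 11.1 and 10.0 after 12h and at 19.95, 25.4 and 30.2 after 48h. No library of 1h, 12h or 48h overlapped those of 0h. The log2 fold change was 0.47 ± 0.19 after 1h, which was not called on the scaled values (adjusted p = 0.148, limma). It was 1.23 ± 0.19 after 12h (adjusted p = 0.000557, limma) and 2.51 ± 0.19 after 48h (adjusted p = 9.60e-07, limma). On TPM as deposited the rise after 1h was called, and the log2 fold change after 48h was 2.1. Zfp36l1 (chr12:80107754-80113013) was at 8.38, 7.29 and 10.4 scaled TPM at 0h and at 13.5, 7.50 and 16.0 after 1h. It was at 11.6, 16.6 and 14.3 after 12h and at 14.8, 15.4 and 23.8 after 48h. The 1h libraries overlapped those of 0h, and those of 12h and 48h did not. Its log2 fold change was 0.45 ± 0.29 after 1h and 0.70 ± 0.29 after 12h, neither called (adjusted p 0.371 and 0.0889, limma). On TPM as deposited both were called, at 1.10 and 1.03 (adjusted p 0.0224 and 0.0242, limma). After 48h it was 1.02 ± 0.29 on the scaled values and called (adjusted p = 0.0119, limma). That call, at the edge of the limit, was lost on TPM as deposited (0.61, adjusted p = 0.127), with quantile normalization (0.91), when rescaled without the 20 most abundant genes (0.95), and without 0h replicate 2 (0.91) or 48h replicate 3 (0.81). Zfp36l1 also shares 55.9% of its exon bases with Gm26669 on the other strand. Zfp36l3, the fourth gene of the family, was listed at 0 in all libraries.

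**Figure D3:**
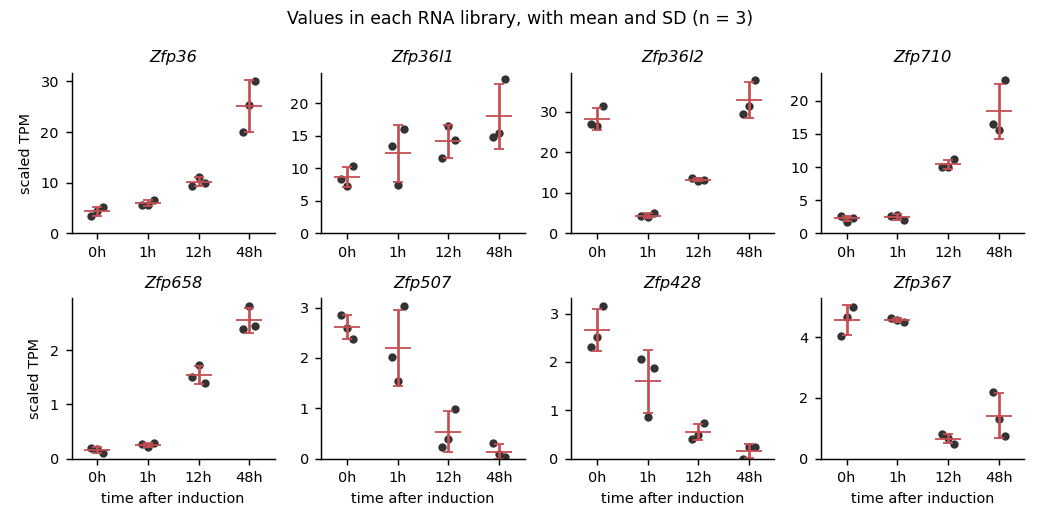
Scaled TPM of 8 Zfp genes in each of the 3 libraries at 0h, 1h, 12h and 48h (dots), with the mean and SD in red and each axis starting at 0. Zfp36l2 drops to a mean of 4.40 after 1h and is back at 33.0 after 48h, Zfp36 rises to 25.2, and Zfp507 and Zfp428 end near 0.

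The CCR4-NOT and decapping genes, which carry out the decay that the CCCH proteins start, were read beside them. Of 17 such genes, none was called after 1h (limma; 0 higher and 1 lower at an unadjusted p under 0.05), none was higher and 3 were lower after 12h (17.6%, beside 9.39% of all genes tested), and 3 were higher and 2 lower after 48h (17.6% and 11.8%, beside 19.6% and 17.6%). Mapkapk2, the kinase that phosphorylates and restrains tristetraprolin, went from a mean of 6.88 to 20.7 scaled TPM after 48h, and its log2 change was 1.57 ± 0.14 (adjusted p = 4.60e-06, limma). The deadenylase Cnot6l rose by 2.14 and the exonuclease Xrn1 by 1.56 on the log2 scale. The complex subunits Cnot9 and Cnot10 were lower after 48h, at -1.33 and -1.48. On TPM as deposited 3 of the 17 (17.6%) were higher and 0 lower after 1h, beside 16.7% and 1.08% of all genes tested. After 12h 1 and 1 were called (5.88% each), beside 17.7% and 5.75%. After 48h 2 and 2 were (11.8% each), beside 13.5% and 23.1%.

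The largest rises among the other members were those of Zfp710 and Zfp658. Zfp710 (chr7:80024814-80094173), a gene for a protein with 11 C2H2 fingers and no KRAB box, was at 2.60, 1.78 and 2.38 scaled TPM at 0h, at 10.1, 10.0 and 11.2 after 12h and at 16.5, 15.6 and 23.1 after 48h. The 1h libraries, at 2.59, 2.79 and 1.96, overlapped those of 0h, and the later ones lay far above. Its log2 fold change was 2.18 ± 0.20 after 12h (adjusted p = 1.44e-05, limma) and 2.97 ± 0.20 after 48h (adjusted p = 4.14e-07). Zfp658 (chr7:43562256-43575461), a KRAB gene with 21 fingers, was at 0.194, 0.185 and 0.0953 at 0h, at 1.51, 1.72 and 1.40 after 12h and at 2.39, 2.82 and 2.43 after 48h. It was nearly silent at 0h, and its log2 fold change of 3.38 ± 0.23 after 48h (adjusted p = 4.51e-07, limma) was the largest of all members. Its fold depends on the pseudocount for that reason.

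Zfp217, a C2H2 factor known as an oncogene in breast tumours that binds corepressors, was the only member higher after 1h. It was at 1.74, 1.41 and 2.17 scaled TPM at 0h, at 4.20, 3.78 and 4.23 after 1h, at 3.63, 4.21 and 3.18 after 12h and at 5.02, 4.53 and 6.45 after 48h. All 9 induced libraries lay above all 3 at 0h. Its log2 fold change was 1.17 ± 0.19 after 1h (adjusted p = 0.00304, limma), 1.02 ± 0.19 after 12h and 1.54 ± 0.19 after 48h (adjusted p = 5.67e-05), and with a pseudocount of 1 the value after 1h was 0.88.

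Zfp608 rose from 1.15, 0.978 and 0.953 scaled TPM at 0h to 3.65, 3.85 and 3.09 after 12h and to 4.40, 5.10 and 3.62 after 48h, and its log2 change at the last time was 1.98 ± 0.18 (adjusted p = 4.36e-06 in limma). Its paralog Zfp609, which acts in cohesin and transcription control, was at means of 2.94 at 0h and 2.98 after 48h and was not called. The KRAB gene Zfp950 was highest after 12h, at 2.65, 2.79 and 3.37 against 0.407, 0.272 and 0.560 at 0h, and lay at 1.07, 2.51 and 1.45 after 48h. Zfp934, another KRAB gene, was at 0.727, 1.27 and 0.976 at 0h and at 4.26, 4.24 and 1.97 after 48h, and was not called after 1h or 12h. Zfp275 and Zfp488 rose after 48h by 1.48 and 1.26 on the log2 scale. Zfp488 was not called on TPM as deposited (0.88), with a pseudocount of 1 (0.62) or without 0h replicate 2 (0.94).

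Zfp236, with 30 fingers, varied most among replicates of those that rose. It was at 2.77, 1.16 and 2.04 scaled TPM at 0h, at 5.08, 10.3 and 5.16 after 12h and at 7.81, 13.9 and 2.86 after 48h. The third library of 48h lay just above the highest of 0h. The log2 fold change was 1.73 ± 0.53 after 12h (adjusted p = 0.0298, limma) and 1.80 ± 0.53 after 48h (adjusted p = 0.0163). The call after 12h was lost without any one of 0h replicates 2 and 3 or the 12h replicates (adjusted p 0.0509 to 0.118), and that after 48h without 0h replicate 2 or 48h replicate 1 or 2 (0.0517 to 0.0702), and on TPM as deposited (0.0535). Zfp276 was higher after 12h, from 0.776, 1.27 and 1.16 to 3.40, 3.33 and 4.05, and shares 19.4% of its exon bases with Fanca.

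Zfp507 and Zfp428 fell the most. Zfp507 (chr7:35772343-35803003, 9 fingers) was at 2.86, 2.60 and 2.38 scaled TPM at 0h, at 2.03, 1.54 and 3.03 after 1h, at 0.234, 0.386 and 0.990 after 12h and at 0.303, 0.0836 and 0.0266 after 48h. The 1h libraries overlapped those of 0h, and the later ones were all under 1. Its log2 fold change was -2.27 ± 0.49 after 12h (adjusted p = 0.00481, limma) and -3.68 ± 0.49 after 48h (adjusted p = 8.88e-05), and Gm26790 shares 28.3% of its exon bases. Zfp428 (chr7:24507006-24515682) was at 2.31, 2.52 and 3.16 at 0h, at 0.413, 0.485 and 0.732 after 12h, and at 0, 0.237 and 0.239 after 48h, and its log2 change was -3.60 ± 0.48 (adjusted p = 8.87e-05, limma). Its call after 12h (-2.12) was lost with a pseudocount of 0.01 (adjusted p = 0.114).

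Zfp367 had its lowest level after 12h. It was at 4.03, 4.67 and 4.98 scaled TPM at 0h, at 4.63, 4.56 and 4.51 after 1h, at 0.797, 0.692 and 0.488 after 12h and at 2.20, 1.30 and 0.732 after 48h. The 1h libraries lay within the range of 0h, and no later library did. Its log2 fold change was -2.64 ± 0.31 after 12h (adjusted p = 9.23e-05, limma) and -1.74 ± 0.31 after 48h (adjusted p = 0.000782). Zfp706, a small protein with 1 finger known to hold back Klf4 in embryonic stem cells, was the most abundant of the genes lower after 48h, going from 19.99, 25.3 and 23.0 at 0h to 10.6, 8.11 and 8.78 after 48h (-1.31 ± 0.18, adjusted p = 0.000135, limma). Zfp146, built almost wholly of C2H2 fingers, fell after 48h by 1.48 on the log2 scale.

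The related genes Zfp280b and Zfp280c fell at both 12h and 48h, by 1.58 and 1.05 after 12h and by 1.32 and 1.57 after 48h on the log2 scale. The pseudogene Zfp783 went from 1.75, 1.63 and 1.68 scaled TPM to 0.303, 0.585 and 0.359 after 48h. Zfp692, Zfp574 and Zfp422 fell after 48h by 1.41, 1.19 and 1.07. Without 48h replicate 1 the value of Zfp574 was -0.77. Zfp462, a large protein with 33 fingers that takes part in heterochromatin formation, was at 1.60, 1.80 and 2.72 at 0h and at 0.675, 0.737 and 0.776 after 12h. Its call after 12h (-1.33 ± 0.37, adjusted p = 0.0188, limma) was lost without 0h replicate 3 or 12h replicate 1 or 2 (adjusted p 0.0521 to 0.0771). That call was also lost on TPM as deposited (-1.03, adjusted p = 0.0749, limma) and with a pseudocount of 1 (-0.80). After 48h Zfp462 was at 0.622, 0.613 and 1.84, which overlapped 0h, and was called lower (-1.06 ± 0.37, adjusted p = 0.0354, limma).

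Promoter sequences of the 2 genes that rose most, the 2 that fell most and the CCCH gene Zfp36l1 are printed next to show what lies before their starts. The sequences are from RefSeq (GRCm38.p6) and were cut before the annotated transcripts, and capitals mark matches on either strand to TTNNGNAA (the letters shared by C/EBP sites), GGGCGG (the GC box) or CCAAT.
Zfp658 (chr7:43562120-43562255, plus strand): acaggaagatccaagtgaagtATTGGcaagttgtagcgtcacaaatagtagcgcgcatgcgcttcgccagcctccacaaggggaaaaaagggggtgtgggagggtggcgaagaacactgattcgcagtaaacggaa
Zfp710 (chr7:80024564-80024813, plus strand): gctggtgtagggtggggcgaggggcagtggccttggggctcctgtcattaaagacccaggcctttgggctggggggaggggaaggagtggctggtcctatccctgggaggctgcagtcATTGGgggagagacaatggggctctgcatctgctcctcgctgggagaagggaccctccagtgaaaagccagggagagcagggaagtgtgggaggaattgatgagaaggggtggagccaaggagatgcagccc
Zfp507 (chr7:35803004-35803239, minus strand): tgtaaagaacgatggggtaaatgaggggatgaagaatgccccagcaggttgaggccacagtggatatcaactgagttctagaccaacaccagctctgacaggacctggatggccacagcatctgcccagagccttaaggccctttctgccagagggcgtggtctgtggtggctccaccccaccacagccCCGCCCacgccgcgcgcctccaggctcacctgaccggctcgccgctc
Zfp428 (chr7:24506837-24507005, plus strand): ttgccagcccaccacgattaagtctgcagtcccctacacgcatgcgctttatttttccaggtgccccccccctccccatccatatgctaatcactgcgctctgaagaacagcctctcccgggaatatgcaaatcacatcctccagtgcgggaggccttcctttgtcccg
Zfp36l1 (chr12:80113014-80113263, minus strand): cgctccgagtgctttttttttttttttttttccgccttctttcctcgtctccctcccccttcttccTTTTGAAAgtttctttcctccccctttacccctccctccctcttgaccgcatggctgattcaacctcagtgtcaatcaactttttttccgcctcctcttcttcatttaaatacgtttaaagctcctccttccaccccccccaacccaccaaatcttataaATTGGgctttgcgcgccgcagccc

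In the printed stretches TTNNGNAA matched in Zfp36l1 alone, 184 bases before its start, and in Zfp428 a match lay 73 bases before the RefSeq start, beyond the printed stretch. RefSeq windows of 300 bases (250 before the start and 50 after) were at hand for 108 of the 132 members, in 138 windows. TTNNGNAA was found in 26.8% of these and in 40.7% of all 32851 windows. GGGCGG was found in 58.7% and 35.7%, and CCAAT in 44.9% and 37.4%. The members' windows were richer in G and C, at a median of 59.2% against 52.7%. Windows were at hand for 12 of the 18 genes higher after 48h and for 10 of the 13 lower, with several for some genes. Of the 16 windows of genes higher 4 held TTNNGNAA and 12 held CCAAT, and of the 11 windows of genes lower 4 and 2 did. This difference was not tested. Such matches are descriptions of letters and not bound sites.

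The KRAB genes called after 48h were all higher on the scaled values. At 48h 6 of the 44 KRAB genes were higher (13.6%) and 0 lower, beside 19.6% and 17.6% of all genes tested. Of the 87 without the box 12 were higher (13.8%) and 12 lower (13.8%). Of the 6 KRAB genes, 4 were under 1 scaled TPM at 0h and so passed the limit for members through the later times, as did 3 of the 12 others that rose, while 5 of the 12 lower were under 1 after 48h and passed it through the earlier ones. With limma's unadjusted p under 0.05, 12 KRAB genes were higher and 8 lower. On TPM as deposited 3 KRAB genes were called higher and 7 lower (6.82% and 15.9%), and 5 and 23 of the others (5.75% and 26.4%). Of all genes tested 13.5% and 23.1% were. The median log2 change after 48h was 0.35 for KRAB genes and -0.01 for the others, beside -0.10 for all genes at or above 1 TPM. On TPM as deposited these medians were -0.03, -0.40 and -0.48, so the KRAB median changed sign with the scaling and stayed above the others. At 12h 3 KRAB genes were higher and 1 was lower (6.82% and 2.27%), beside 12.0% and 9.39% of all genes tested. At 1h none was called (limma; 4 higher and 0 lower at an unadjusted p under 0.05), and the medians were 0.17 and 0.02. These differences between the groups of members were not tested.

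**Figure D4:**
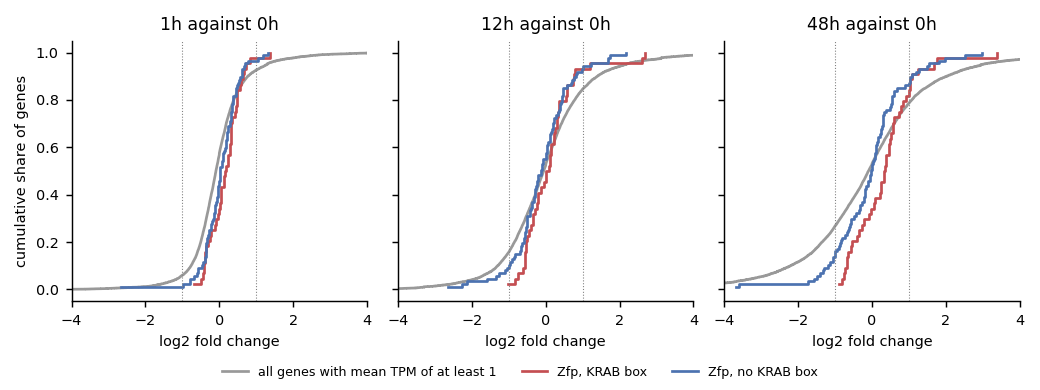
Cumulative share of genes by log2 fold change after 1h, 12h and 48h against 0h, for the 44 KRAB genes (red), the 87 Zfp genes without the box (blue) and all 9331 genes at or above 1 TPM (grey), with dotted lines at the limits of a call. The curves of the Zfp genes are steeper than the grey one, with fewer genes beyond the dotted lines, and after 48h the red curve lies to the right.

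The corepressor genes through which KRAB proteins act were chosen as a list of 16, of which 15 were tested. None was called after 1h (limma; 1 higher and 4 lower at an unadjusted p under 0.05), 1 was higher and 5 were lower after 12h (6.67% and 33.3%, beside 12.0% and 9.39% of all genes tested), and 2 were higher and 5 lower after 48h (13.3% and 33.3%, beside 19.6% and 17.6% of all genes tested and 19.6% and 24.8% of those at or above 1 TPM). Trim28 itself went from a mean of 45.6 scaled TPM at 0h to 43.0 after 1h, 13.4 after 12h and 8.16 after 48h (log2 fold change -2.50 after 48h). The HP1 genes Cbx1, Cbx3 and Cbx5 fell by 1.84, 2.08 and 3.21 on the log2 scale after 48h, and the deacetylase Hdac2 by 1.74. Morc3 and Atf7ip, a partner of Setdb1, rose by 2.56 and 2.05. Setdb1 was at 4.11 at 0h and 3.82 after 48h and was not called. On TPM as deposited 2 were higher and 3 lower after 12h (13.3% and 20%), beside 17.7% and 5.75% of all genes tested. After 48h 2 and 7 were (13.3% and 46.7%), beside 13.5% and 23.1%, and 13.8% and 33.4% of those at or above 1 TPM.

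Zfp genes known for retroelement silencing or imprinting were in part silent in these cells. Of 7 such genes, Zfp445, Zfp568, Zfp809 and Zfp932 were members, Zfp57 and Zfp708 had means of 0.0133 and 0.0408 TPM as deposited, and Zfp819 was listed at 0. Zfp445, which protects imprints with Zfp57, was at means of 4.56, 5.61, 5.32 and 6.13 scaled TPM from 0h to 48h. Zfp809, which silences retroviruses by their primer binding site, was at 1.84, 2.04, 2.36 and 2.63. None of the 4 was called at any time (limma; at an unadjusted p under 0.05, 1 after 1h, 0 after 12h and 2 after 48h), and on TPM as deposited Zfp568 was higher after 1h and Zfp932 lower after 48h.

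None of the 9 members with roles in RNA, ribosomes and the spindle was called at any time on the scaled values (limma; at an unadjusted p under 0.05, 2 after 1h, 1 after 12h and 4 after 48h), while on TPM as deposited Zfp207 and Zfp638 were higher after 1h, and Zfp346, Zfp598 and Zfp830 lower after 48h. Zfp207 (BuGZ), the spindle assembly factor with the highest level of all members, was at 19.1, 15.1 and 14.7 scaled TPM at 0h and at 21.7, 23.7 and 15.2 after 48h, with overlapping groups, and its log2 change was 0.29 ± 0.20 (adjusted p = 0.253 in limma), or -0.12 on TPM as deposited. The RNA-binding protein Zfp106 was at means of 10.3, 9.53, 9.78 and 10.7. Zfp598, the ubiquitin ligase that senses collided ribosomes, was at 3.50 at 0h and 2.36 after 48h (-0.63, adjusted p = 0.0762, limma), and on TPM as deposited its change was called (-1.01, adjusted p = 0.0135).

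Of 22 DNA-binding and chromatin factors chosen by their known roles, 20 were tested. After 48h 2 were higher and 2 lower (10% each), beside 19.6% and 17.6% of all genes tested. On TPM as deposited 2 and 4 were (10% and 20%), beside 13.5% and 23.1%. Zfp217 and Zfp608 were the ones called higher on the scaled values. Zfp462 and Zfp423, the latter below the limit for members at a mean of 0.128 TPM, were the ones called lower. With limma's unadjusted p under 0.05, 2 were higher and 4 lower. Zfp131 (-0.90, adjusted p = 0.0145, limma) and Zfp410 (-0.88, adjusted p = 0.00191) missed only the fold limit. Zfp281, Zfp148, Zfp384 and Zfp143, all sequence-specific regulators of many promoters, were not called, with log2 changes of 0.30, 0.04, 0.49 and 0.54 after 48h. For comparison, 22 Zbtb genes, whose proteins join C2H2 fingers to a BTB domain, passed the same limit. After 48h 4 of them were higher and 2 lower (18.2% and 9.09%), with a median log2 change of 0.22. Of all genes at or above 1 TPM 19.6% and 24.8% were. On TPM as deposited 2 Zbtb genes were higher and 6 lower (9.09% and 27.3%), with a median of -0.17. The shares of all genes at or above 1 TPM were then 13.8% and 33.4%.

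Zfp genes often lie in clusters, and the changes differed among neighbours. With members joined when their starts lay within 250000 bases, 6 groups of 3 or more held 22 members, and 92 members stood alone. The largest, on chromosome 7 (chr7:29768552-30169750), held Zfp84, Zfp940, Zfp568, Zfp260, Zfp382 and Zfp146. Its log2 changes after 48h ran from -1.48 for Zfp146 to 0.61 for Zfp260, with a median of 0.35. In that of Zfp180, Zfp61 and Zfp428 the range was -3.60 to 0.36, and in that of Zfp948, Zfp229 and Zfp995, all KRAB genes, it was 0.33 to 1.03 with no member called.

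In PCHi-C, the bait fragments counted were the 18175 listed as a bait at 1 or more times. A start of 112 members lay on one of them, and 20 members had none there. A member whose bait had no listed interaction cannot be told from one without a bait. The counts below cover only genes with a start on such a fragment. The lists held 138769 pairs of fragments at 0h, 137836 after 1h, 131598 after 12h and 144072 after 48h. The median number of interactions per member was 6 at 0h and 5 after 1h, 12h and 48h, against 8 at each time for 7975 other genes at or above 1 TPM. Members higher after 48h had medians of 3.5 at 0h and 2.5 after 48h (14 genes), and those lower had 5.5 and 4.5 (12 genes). At 0h 12 of the 112 members had no interaction. The list of each time is a single pooled set, so there is no replicate error and no test of a difference between times.

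Of the 1217 interactions of members at 0h, 61.1% were also listed after 1h (95% Wilson interval 58.3 to 63.8), 53.7% after 12h (50.9 to 56.5) and 52.7% after 48h (49.9 to 55.5). For the other genes the shares were 59.5%, 54.1% and 55.8%. Of the lists of 1h, 12h and 48h, 61.3%, 61.1% and 56.4% of the members' interactions were in that of 0h. The intervals cover counting error only, and interactions of one bait are not independent.

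Single members were chosen here after their numbers were seen. Of the 112 members 15 shared a bait fragment with the start of another gene at or above 1 TPM, so their interactions cannot be credited to either gene. Sharing with genes below 1 TPM was not counted, so the other members may share theirs too. Zfp384 and Zfp654 each shared theirs with 1 other gene at or above 1 TPM and Zfp236 with 2. Zfp384 had the most interactions at 0h and went from 88 to 79, 67 and 54. Zfp207 went from 42 to 51, 24 and 15, and Zfp236 from 34 to 27, 17 and 13. Zfp236 was called higher in RNA after 48h, with a log2 change of 1.80, and Zfp384 at 0.49 and Zfp207 at 0.29 were not called. Zfp654 went from 40 to 27, 44 and 77 and Zfp719 from 22 to 17, 35 and 61. The CCCH gene Zfp36l2 had 39, 31, 35 and 50 interactions, Zfp36 had 9, 11, 5 and 8, and Zfp36l1 had 1 after 1h and none at the other times. Zfp710, which rose most after Zfp658, had 5, 2, 3 and 1.

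Promoters of members were also listed as contacting each other. There were 18 such pairs among 22 members, all within a chromosome and 12 of them on chromosome 7, with 16 listed at 0h, 12 after 1h, 9 after 12h and 8 after 48h. The distance between gene starts had a median of 154 kb and ran from 16.2 to 1257 kb. In all 4 lists there were 6 pairs, among them Zfp658 with its neighbour Zfp719 at 17.4 kb, both KRAB genes, and Zfp787 with Zfp865 at 1136 kb. Zfp719 was higher after 12h (log2 fold change 1.20, adjusted p = 0.0428, limma) and not after 48h (0.78). The pair of Zfp715 and Zfp658 was listed at 0h and 1h and not after 12h and 48h.

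**Figure D5:**
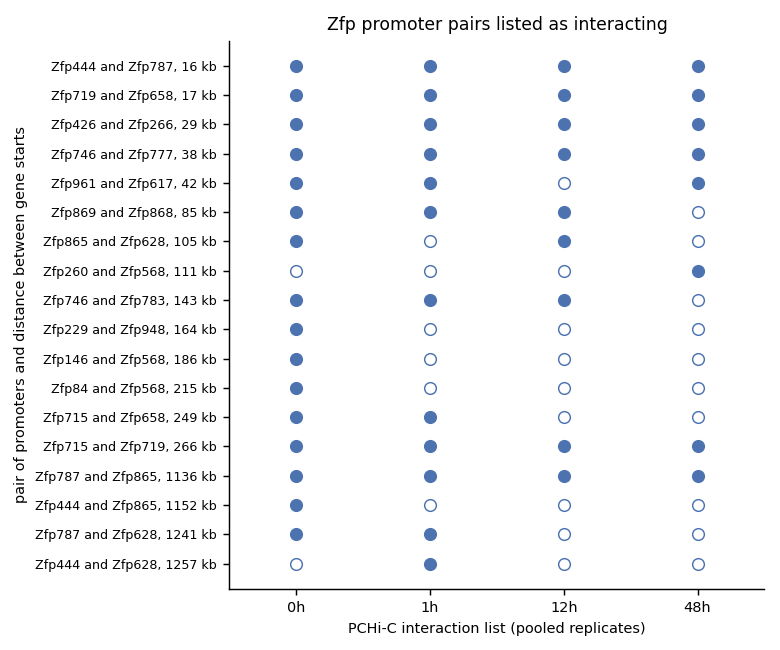
Pairs of Zfp promoters (rows, with the distance between gene starts) in the pooled PCHi-C list of each time (columns), with filled circles for a listed interaction and open circles for none. Of the 18 pairs 6 are filled throughout, and 16 are filled at 0h and 8 after 48h.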

How the data were processed

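RNA libraries of C10 cells at 0h, 1h, 12h and 48h (3 biological replicates each) and 4 pooled PCHi-C lists were analysed. The authors merged technical replicates, trimmed reads with Trim Galore 0.6.2, aligned them to mm10 with HISAT2 2.1.0 and deposited one TPM value per gene and library, estimated with RSEM. The 0h PCHi-C list carries the interaction score (CHiCAGO) that the authors deposited, from 5 up, and the other lists carry whole numbers of a unit not given in the sources used here, which were not used. Members and lists were chosen with earlier results of these data known.

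Deposited TPM were divided by median-of-ratios size factors (11246 genes), and log2(value + 0.1) of 16415 genes, whose TPM averaged at least 0.1, was tested with limma 3.58.1 in R 4.3.3, in 1 model over the 4 times with a trended variance, each time against 0h, with Benjamini-Hochberg adjustment. The main scaling was chosen because TPM sum to a fixed total, so a change in the most abundant RNA can shift all other values. Whether this caused the shifts seen here was not tested. Only the scaling and the limma test at 48h were tried on simulated data. These had independent noise, equal numbers of raised and lowered genes, and no set that stood apart like replicate 3. P-values measure the spread between replicates of 1 line. Genes called with groups that do not overlap were named by size of change (10 in each direction at 48h and 6 at 1h and 12h), with the 6 most abundant members, those nearest the limit and the lists given. Coordinates and overlaps are from GENCODE M21 (GRCm38, the build mm10). KRAB boxes (at least 18 of 37 conserved positions) and fingers were found in translated GENCODE coding sequences. A member's interactions were those of fragments holding any of its transcript starts, each pair counted once. Hi-C samples were not analysed here.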

Additional observations from a re-analysis of the deposited data

How the results depend on the processing

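Of the values of single genes, 1114 kept their direction and their side of the threshold, 46 lost a call, 6 gained one and 10 changed sign without being called. The sign changes were those of Zfp106 after 1h (0.55 as deposited, 0.0302 with quantile normalization, 0.0591 when rescaled without the 20 most abundant genes), after 12h (0.26 as deposited, 0.0473 when rescaled) and after 48h (-0.35 as deposited, -0.0262 with quantile normalization, -0.0134 when rescaled), and of Zfp207 (-0.12) and Zfp36l2 (-0.20) after 48h as deposited. The number of members higher after 1h (1) was 26 as deposited, 0 with a pseudocount of 1 or beyond a log2 change of 2, 3 with no fold limit, and 2 with a filter of 1 TPM, quantile normalization or rescaling. The number lower after 1h (1) was 2 with a pseudocount of 0.01 and 3 with no fold limit. At 12h, 16 were higher as deposited and 3 beyond 2, and 4 were lower with a pseudocount of 1 or as deposited, 6 with quantile normalization or rescaling, and 3 beyond 2. At 48h, 7 were higher and 5 lower with a pseudocount of 1, 8 and 31 as deposited, and 3 and 2 beyond 2, and 22 were lower with no fold limit. Where a pseudocount of 1 removed calls, it shrinks the change of genes near 1 TPM by construction; the cause of the other shifts was not tested.

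The members' median log2 change was 0.07 after 1h, -0.09 after 12h and 0.09 after 48h. As deposited it was 0.71, 0.22 and -0.31. At 1h it was 0.051 with a pseudocount of 1, 0.11 with quantile normalization, 0.24 when rescaled, and 0.10 and 0.12 with membership at 0.5 and 2 TPM, and after 12h it was 0.0191 when rescaled, and -0.0275 and 0.0155 with those limits. Leaving out 1 library at a time gave 1 to 2 members higher and 1 to 2 lower after 1h, and medians of 0.0288 to 0.175 after 1h, -0.123 to -0.0328 after 12h and -0.01 to 0.16 after 48h. It was 2 higher after 1h without 1h replicate 3, 48h replicate 1 or 48h replicate 3, and 2 lower without 0h replicate 3. Replicate numbers were not taken to pair the samples: deviations of same-numbered libraries correlated at 0.08 to 0.26 for replicate 3 (5 of 6 pairs over 0.1) and at -0.01 to 0.11 for replicates 1 and 2 (2 of 12). With the replicate number as a block, 2 members were higher after 1h and the counts were 8 higher and 10 lower after 12h and 18 and 13 after 48h. A term for the libraries of replicate 3, chosen after seeing the data, gave 2 higher after 1h and otherwise the same counts as the block. Leaving them out at all times, also chosen then, gave 6 lower after 12h and a median of 0.10 after 1h.

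The median number of interactions per member fell to 2 at 0h, 3 after 1h, 2.5 after 12h and 2.5 after 48h without contacts between 2 baits, and to 0 with 0h scores of at least 10. Counting a second fragment within 10 kb as shared raised the share of 0h interactions to 84.3% after 1h, 79.2% after 12h and 75.3% after 48h. Over all 403 genes of the name pattern there were 136 promoter pairs at 0h, 121 after 1h, 124 after 12h and 112 after 48h.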
